A study of Arabidopsis thaliana with 12 samples.

Results

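The plastid genome of Arabidopsis thaliana encodes the core subunits of the photosynthetic membrane complexes and the large subunit of Rubisco. The genes described here are those of photosystem I (psa), photosystem II (psb), the cytochrome b6f complex (pet) and the plastid ATP synthase (atp), together with rbcL. They were chosen by their plastid locus and their symbol, from probe sets that the array annotation assigns to a single gene, and the plastid ndh genes were left out. The reference gene table lists 33 such genes, and all 33 had 1 probe set each, among 69 plastid genes and 13356 genes in all with a single-gene probe set. Photosystem I holds 5 of them, photosystem II 15, the cytochrome b6f complex 6, the ATP synthase 6 and Rubisco 1.

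Photosystem II splits water and passes electrons through the cytochrome b6f complex to photosystem I, and the proton gradient built on the way drives the ATP synthase. Each complex mixes plastid-encoded core subunits with nuclear-encoded subunits that are imported, so its assembly draws on both genomes. Most plastid photosynthesis genes are transcribed by a bacterial-type polymerase encoded in the plastid itself, often as shared transcripts of several genes that are then cut and trimmed. In meristems and very young leaves plastids are small and little differentiated, and photosynthesis transcripts accumulate as the tissue greens.

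Buds from rosette leaf axils were collected at developmental stage 6.00 from accession Col-8, which has the Col-0 background. Bud n sits in the axil of the uppermost rosette leaf, and bud n-2 lies lower on the same axis. Light differed in its red to far-red ratio (R:FR), set high or set low, and low R:FR is the signal of shade by neighbours. These are called the high and the low ratio below, and all groups shared a photoperiod of 18 h, a photon flux of 185 micromoles per square metre per second and day and night temperatures of 24 and 18 °C. Total RNA was hybridised to Affymetrix ATH1 arrays, 3 for each of the 4 combinations of bud and light. Nothing in the labels says that the 3 arrays of a group came from separate plants or batches. The p-values therefore reflect only how far these arrays spread, and their number limits the precision of every value.

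The values are intensities on a linear scale, scaled by the authors to a common mean on each array. A probe set's intensity depends on its own probes, so levels are compared between samples for the same gene and not between genes. Differences are given on the log2 scale with limma's standard error (SE) and with p-values adjusted by Benjamini-Hochberg over all 14295 probe sets that passed a filter on dim signal, and a difference is called at an adjusted p under 0.05. All 33 genes passed that filter, psaA through the bud n-2 arrays alone (6 of 6, against 1 of 6 in bud n) and the others in either bud. The labelling kit named in the labels primes from poly(A) tails, which stable plastid mRNAs mostly lack, so a signal need not track the amount of plastid mRNA, and this was not tested.

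Arrays of a group correlated at 0.977 to 0.988 over all tested probe sets, and 0 pairs were identical. Markers could not check the tissue: of 12 bud and meristem markers only CLV3 and LAS had a named probe set, both dim in every group, and the root marker PYK10 was dim as well. RCA, the Rubisco activase gene, was the only 1 of 8 listed green-tissue markers with a named probe set. It was bright in every group, with means of 2930 to 3357. The 25S ribosomal RNA control differed between positions, at 1460 to 1765 on the bud n arrays and 2123 to 2907 on the bud n-2 arrays. In bud n-2 its mean was 2205 at the high and 2516 at the low ratio. The 5S ribosomal RNA control in bud n-2 read 342, 267 and 146 at the high ratio and 410, 432 and 364 at the low ratio, without overlap. In bud n the 5S means were 237 and 274. Array medians lay between 37.9 and 38.9 for bud n, below those of bud n-2 (42.4 to 44.1). The actin 3-prime to 5-prime ratio, a sign of RNA quality, was 4.31 and 4.63 (log2) in bud n at the high and low ratio and 4.16 and 4.17 in bud n-2. The part of these array measures in the differences below, between positions or lights, was not tested.

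The clearest pattern was a higher signal in bud n-2 than in bud n. At the high ratio 14 of the 33 genes were higher in bud n-2 and 0 were lower, where 20.2% of all tested probe sets were higher and 14.3% lower (34.5% in all). At the low ratio 21 were higher and 0 were lower, against 28.4% and 23.3% of all tested probe sets (51.7% in all). The median difference of the 33 genes was 0.36 at the high and 0.57 at the low ratio on the log2 scale, beside 0.04 and 0.05 over all tested probe sets. All 14 genes called at the high ratio were also among the 21 called at the low ratio, and 12 genes were called under neither. Without psaA, whose way through the filter fixed its direction in part, 13 and 20 of 32 were higher, with medians of 0.35 and 0.52, a count made after the values were seen. The arrays of the buds did not overlap, with bud n-2 higher, for 13 genes at the high ratio and lower for 0 (26.1% and 18.9% of all tested probe sets), and higher for 20 at the low ratio (33.6%). A bud holding fewer cells of a green type and a bud whose cells hold less of the RNA cannot be told apart in such bulk samples.

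At the high ratio the count rests partly on single arrays and on the scaling. Without replicate 1 of bud n at the high ratio 9 genes were higher and 1 was lower (petB), and without replicate 1 of bud n-2 at the high ratio 8 were higher and 2 were lower (petB and rbcL). With each array centred on its median, 9 were higher and 2 lower (petB and rbcL) at the high ratio and 17 higher and 0 lower at the low ratio. The medians of the 33 genes were then 0.19 and 0.38. That centring moves the median over all tested probe sets to -0.13 and -0.15, with 12.3% higher and 28.2% lower at the high ratio and 18.3% and 36.3% at the low ratio.

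**Figure D1:**
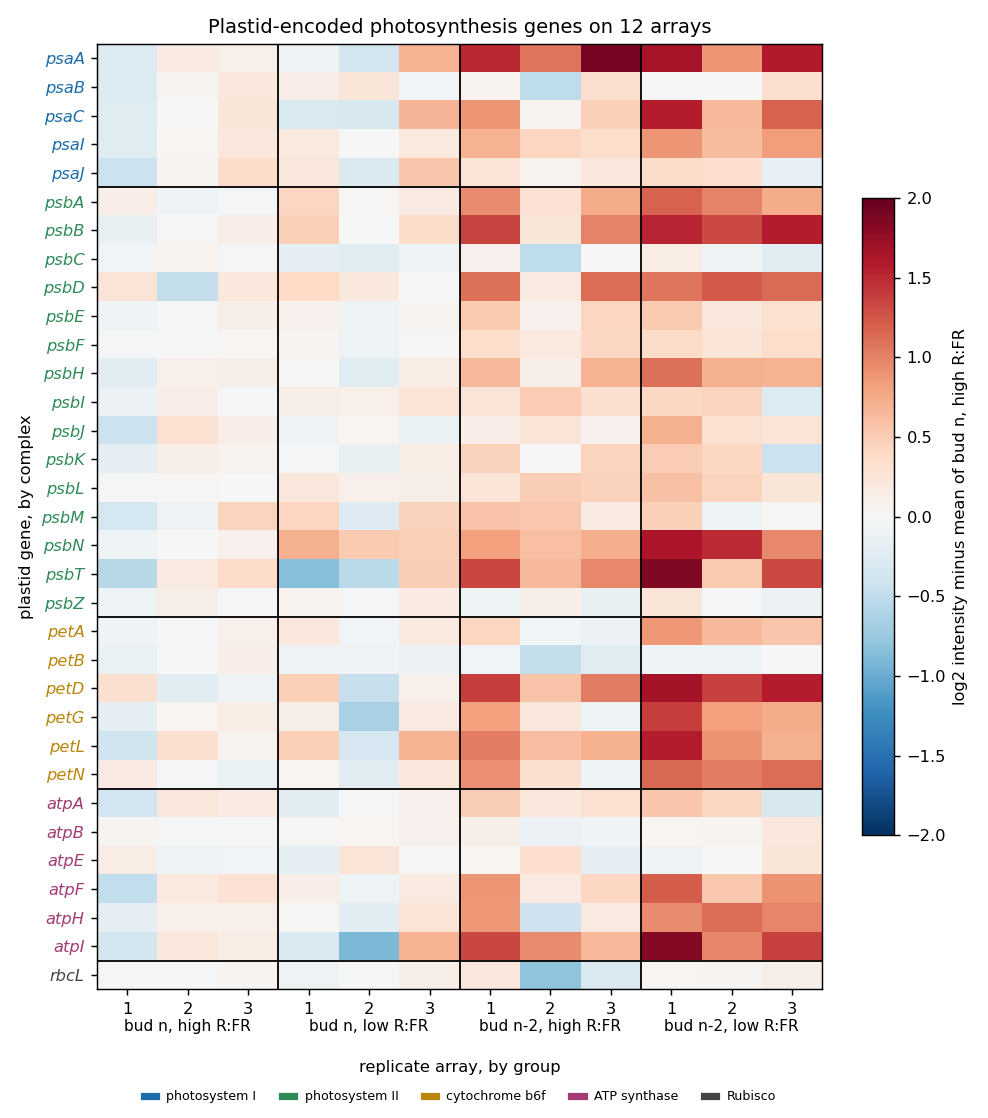
Log2 intensity of the 33 genes (rows, by complex) on the 12 arrays (columns, by group and replicate), each as the difference from the gene's mean over the 3 arrays of bud n at the high ratio. The bud n-2 columns are redder for most rows, while psaB, psbC, psbZ, petB, atpB, atpE and rbcL stay pale or turn blue, and replicate 2 of bud n-2 at the high ratio is paler than its group.

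Photosystem I had 2 of its 5 plastid genes higher in bud n-2 at the high ratio (psaA and psaI) and 3 at the low ratio (with psaC), with medians of 0.47 and 0.65. The calls are 40% and 60% of the genes, beside 20.2% and 28.4% of all tested probe sets. These shares count psaA, which passed the filter through bud n-2 alone. Without psaA the calls left are psaI at the high ratio, and psaI and psaC at the low ratio. Among 5 genes a single call weighs heavily. The genes psaA and psaB encode the paired core proteins that hold the reaction-centre chlorophyll, and psaA was called while psaB was not. The psaA signal in bud n was 10.4, 14.1 and 13.5 at the high ratio and 11.6, 9.73 and 20.2 at the low ratio. The psaA signal in bud n-2 was 35.5, 26.4 and 46.8 at the high ratio and 39.1, 23.1 and 37.4 at the low ratio. Every bud n-2 array lay above every bud n array, though most bud n values were too dim to pass the filter. At the high ratio psaA was below its array's 40th percentile on each bud n array. Its difference there is therefore given as a bound, a mean at least 1.89-fold higher in bud n-2. The adjusted p of 0.000942 belongs to the fitted difference without that bound (log2 1.49, limma). At the low ratio, where 1 of the 3 bud n arrays measured it, the fitted difference was 2.45-fold (adjusted p = 0.00159). Since psaA could be tested only because bud n-2 was bright enough, these calls are partly set by the filter.

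For psaB, the brightest photosystem I probe set, bud n gave 859, 1083 and 1200.1 at the high ratio and 1133, 1221 and 995 at the low ratio. Bud n-2 gave 1095, 733 and 1300.3 at the high and 1033, 1031 and 1298 at the low ratio. The psaB arrays of the buds overlapped in both lights, and the differences were -0.03 (95% interval -0.39 to 0.32) and 0.00 (-0.35 to 0.36). The gene psaC encodes the stromal subunit that carries the terminal iron-sulphur clusters. Its signal in bud n was 63.6, 74.7 and 88.4 at the high ratio and 60.4, 59.9 and 120.4 at the low ratio, against 138, 77.6 and 104 at the high and 224, 118 and 169.6 at the low ratio in bud n-2. It was 2.17-fold higher in bud n-2 at the low ratio (log2 1.12 ± 0.26 SE, adjusted p = 0.00176), although the third bud n array lay above the lowest bud n-2 array, and it was not called at the high ratio (log2 0.47, adjusted p = 0.175).

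A small membrane subunit is encoded by psaI. It read 304, 371 and 417 in bud n and 582, 488 and 459 in bud n-2 at the high ratio. At the low ratio it read 414, 363 and 415 in bud n and 663, 561 and 645 in bud n-2. No psaI array of bud n reached a bud n-2 array in the same light, and the gene was higher in both (log2 0.49 ± 0.12 SE, adjusted p = 0.00408, and log2 0.65 ± 0.12 SE, adjusted p = 0.000224). Differences for psaJ, another small membrane subunit, were 0.18 and 0.01 with neither called.

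Photosystem II had 9 of 15 genes higher in bud n-2 at the high ratio (psbA, psbB, psbD, psbE, psbF, psbH, psbL, psbN and psbT) and 10 at the low ratio (with psbJ). Their medians over all 15 were 0.40 and 0.34, and 20.2% and 28.4% of all tested probe sets were higher. The gene psbB encodes CP47, an inner antenna protein bound to the reaction centre. Its signal in bud n was 103, 116 and 125 at the high ratio and 159, 114 and 147 at the low ratio. Its bud n-2 signal was 292, 136 and 226 at the high ratio and 329, 284 and 339 at the low ratio. The groups did not overlap in either light, with replicate 2 of bud n-2 at the high ratio closest to bud n. The gene was 1.82-fold higher at the high ratio (log2 0.86 ± 0.20 SE, adjusted p = 0.00266) and 2.29-fold higher at the low ratio (log2 1.19 ± 0.20 SE, adjusted p = 8.39e-05).

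The reaction-centre protein D2 is encoded by psbD. The psbD arrays of bud n read 55.3, 33.3 and 53.1 at the high ratio and 60.9, 53.1 and 46.1 at the low ratio. Those of bud n-2 read 99.1, 52.0 and 100.4 at the high and 96.5, 108 and 101 at the low ratio. Replicate 2 of bud n-2 at the high ratio fell within the bud n range, and at the low ratio the arrays did not overlap. The differences were 0.80 ± 0.22 SE (adjusted p = 0.00958) and 0.94 ± 0.22 SE (adjusted p = 0.00188). The other reaction-centre protein, D1, is encoded by psbA, named here for its role after its values were seen. It was 1.58-fold and 1.70-fold higher in bud n-2 at the high and low ratio (log2 0.66, adjusted p = 0.00295, and log2 0.76, adjusted p = 0.000487). In contrast psbC, which encodes the inner antenna protein CP43 and begins within psbD, differed by -0.14 and 0.11 with neither called.

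The small subunit PsbH is encoded by psbH. It read 212, 268 and 269.9 in bud n and 387, 269 and 401 in bud n-2 at the high ratio, with a slight overlap. It read 252, 209.9 and 275 in bud n and 532, 404 and 403 in bud n-2 at the low ratio, with none. Its differences were 0.48 and 0.86 (both ± 0.15 SE), with adjusted p of 0.0214 and 0.000177. For psbT, a small subunit near the dimer interface of the complex, the bud n arrays gave 45.8, 75.9 and 87.1 at the high ratio and 37.3, 46.1 and 94.6 at the low ratio. The bud n-2 arrays gave 169.7, 105 and 131 at the high and 242, 96.5 and 167 at the low ratio. Its replicates spread widely, with SDs of 0.35 to 0.70 on the log2 scale. The groups still did not overlap, and psbT was 1.98-fold and 2.89-fold higher (log2 0.98 ± 0.33 SE, adjusted p = 0.0283, and log2 1.53 ± 0.33 SE, adjusted p = 0.000923).

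The brightest photosystem II probe set was that of psbM, a small subunit at the same interface. Its bud n signal was 2533, 2993 and 4408 at the high ratio and 4336, 2697 and 4430.1 at the low ratio, and its bud n-2 signal 4802, 4705 and 3596 at the high and 4500.4, 3034 and 3277 at the low ratio. These ranges overlapped, and psbM was not called in either light (log2 0.43, adjusted p = 0.123, and log2 -0.07, adjusted p = 0.799). The genes psbE and psbF, which encode both subunits of cytochrome b559, were higher by 0.35 and 0.32 at the high ratio and by 0.34 and 0.33 at the low ratio. Their neighbours psbL and psbJ, small subunits, differed by 0.40 and 0.16 and by 0.28 and 0.47, and psbJ passed only at the low ratio (adjusted p = 0.425 and 0.0144). The small subunit genes psbI, psbK and psbZ were called in neither light, with differences from -0.04 to 0.36. The product of psbN serves in assembly of the complex and is no subunit, and psbN lies between psbT and psbH on the opposite strand. It was 1.64-fold and 1.72-fold higher in bud n-2 (adjusted p = 0.00199 and 0.000516).

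The cytochrome b6f complex had 2 of 6 genes higher in bud n-2 at the high ratio (petD and petL) and 5 of 6 at the low ratio, all but petB. The medians were 0.35 and 0.93, and 20.2% and 28.4% of all tested probe sets were higher. With 6 genes, the 2 calls at the high ratio (33.3%) are not far from the share of 20.2%. The large plastid-encoded subunits besides cytochrome f are cytochrome b6 (petB) and subunit IV (petD). The petD signal in bud n was 72.6, 50.1 and 54.7 at the high ratio and 81.3, 42.5 and 62.7 at the low ratio. In bud n-2 petD read 153, 86.7 and 119.5 at the high and 185, 151 and 174 at the low ratio. No arrays overlapped, and petD was 1.99-fold higher at the high ratio (log2 1.00 ± 0.21 SE, adjusted p = 0.00169) and 2.82-fold higher at the low ratio (adjusted p = 2.04e-05).

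The petB probe set, the brightest of the complex, gave 2057, 2277 and 2482 in bud n at the high ratio and 2159, 2149.6 and 2083 at the low ratio. It gave 2193, 1636 and 1909 at the high and 2124, 2124 and 2270.0 at the low ratio in bud n-2. The petB difference was -0.25 at the high ratio (adjusted p = 0.0693; 0.00396 to 0.361 over the alternatives) and 0.03 at the low ratio (adjusted p = 0.844). Cytochrome f is encoded by petA, which differed by 0.09 at the high ratio and was 1.49-fold higher in bud n-2 at the low ratio (log2 0.57 ± 0.13 SE, adjusted p = 0.00148).

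The products of petG, petL and petN are small membrane subunits of the complex. The petG signal in bud n was 152, 178 and 191 at the high ratio and 188, 110.4 and 196 at the low ratio. The petG signal in bud n-2 was 304, 203 and 162 at the high ratio, within reach of bud n, and 452, 305 and 289.8 at the low ratio, above every bud n array. Its difference was 0.32 (adjusted p = 0.295) at the high and it was 2.14-fold higher (adjusted p = 0.000607) at the low ratio. For petL, bud n gave 59.8, 98.3 and 82.8 at the high and 109.6, 62.1 and 128 at the low ratio. Bud n-2 gave 159.7, 121 and 128 at the high and 233, 147 and 129 at the low ratio. The arrays did not overlap in either light, by a narrow margin at the low ratio, and petL was 1.72-fold higher in each (adjusted p = 0.0196 and 0.0131).

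The petN arrays of bud n read 425, 374 and 349 at the high ratio and 393, 330.4 and 442 at the low ratio. Those of bud n-2 read 721, 478 and 358 at the high ratio and 845, 773 and 829 at the low ratio. At the high ratio the 3 bud n-2 values ran from within the bud n range to well above it (log2 0.38, adjusted p = 0.0991), while at the low ratio they sat close together above all bud n values (log2 1.08 ± 0.18 SE, adjusted p = 7.22e-05).

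The ATP synthase had 1 of 6 genes higher in bud n-2 at the high ratio (atpI) and 3 at the low ratio (atpI, atpH and atpF), with medians of 0.27 and 0.54. The single call at the high ratio is below the share over all tested probe sets (20.2%), and the share at the low ratio was 28.4%. The genes atpI, atpH and atpF encode subunits of the membrane-embedded proton channel, while atpA, atpB and atpE encode subunits of the catalytic head and its stalk. The atpI signal in bud n was 38.7, 57.7 and 55.4 at the high ratio and 40.4, 26.8 and 80.4 at the low ratio. Its bud n-2 signal was 126, 95.9 and 79.0 at the high and 178, 98.5 and 128 at the low ratio. The bud n arrays at the low ratio spread by an SD of 0.80 on the log2 scale, the groups did not overlap, and atpI was 1.98-fold and 2.96-fold higher (log2 0.98 ± 0.30 SE, adjusted p = 0.0170, and log2 1.56 ± 0.30 SE, adjusted p = 0.000334).

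The ring of the channel is built from the atpH product. It read 110.2, 135 and 136 in bud n and 229.7, 94.7 and 143 in bud n-2 at the high ratio, where the ranges overlapped (log2 0.21, adjusted p = 0.481). It read 129, 108 and 154 in bud n and 244, 275 and 249 in bud n-2 at the low ratio, with no overlap and 1.99-fold higher in bud n-2 (log2 0.99 ± 0.21 SE, adjusted p = 0.000939). For atpF, which encodes a subunit linking channel and head, bud n gave 49.8, 80.3 and 85.5 at the high and 76.6, 65.3 and 79.3 at the low ratio. Bud n-2 gave 128, 78.1 and 93.3 at the high and 161, 101 and 131 at the low ratio, and only the second pair of groups was called apart (log2 0.48, adjusted p = 0.0795, against log2 0.81, adjusted p = 0.00342).

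No gene of the catalytic head was called between positions. The brightest, atpE, gave 4517, 3866 and 3926 in bud n at the high ratio and 3562, 4912 and 4182 at the low ratio. It gave 4198, 5176 and 3605 at the high and 3912, 4109 and 4823 at the low ratio in bud n-2. The groups overlapped, and the difference was 0.06 at the high ratio (95% interval -0.23 to 0.36) and 0.03 at the low ratio (-0.26 to 0.32). The intervals of atpB ran from -0.22 to 0.17 and from -0.15 to 0.24, and atpA differed by 0.34 and 0.28 with neither called.

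Rubisco's large subunit, the carbon-fixing enzyme's catalytic part, is encoded by rbcL. The rbcL signal in bud n was 237, 234 and 250.2 at the high ratio and 225, 233 and 261 at the low ratio. In bud n-2 it was 282, 138 and 197 at the high ratio and 248, 250.1 and 260.0 at the low ratio. The 3 bud n-2 arrays at the high ratio spread by an SD of 0.52 on the log2 scale, against 0.04 to 0.11 in the other groups, and reached both above and below bud n. The rbcL difference was -0.29 (95% interval -0.64 to 0.06) at the high and 0.08 (-0.27 to 0.43) at the low ratio, and neither was called (adjusted p = 0.196 and 0.714). Without replicate 1 of bud n-2 at the high ratio, rbcL was lower there (adjusted p = 0.00407; up to 0.878 over the alternatives).

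**Figure D2:**
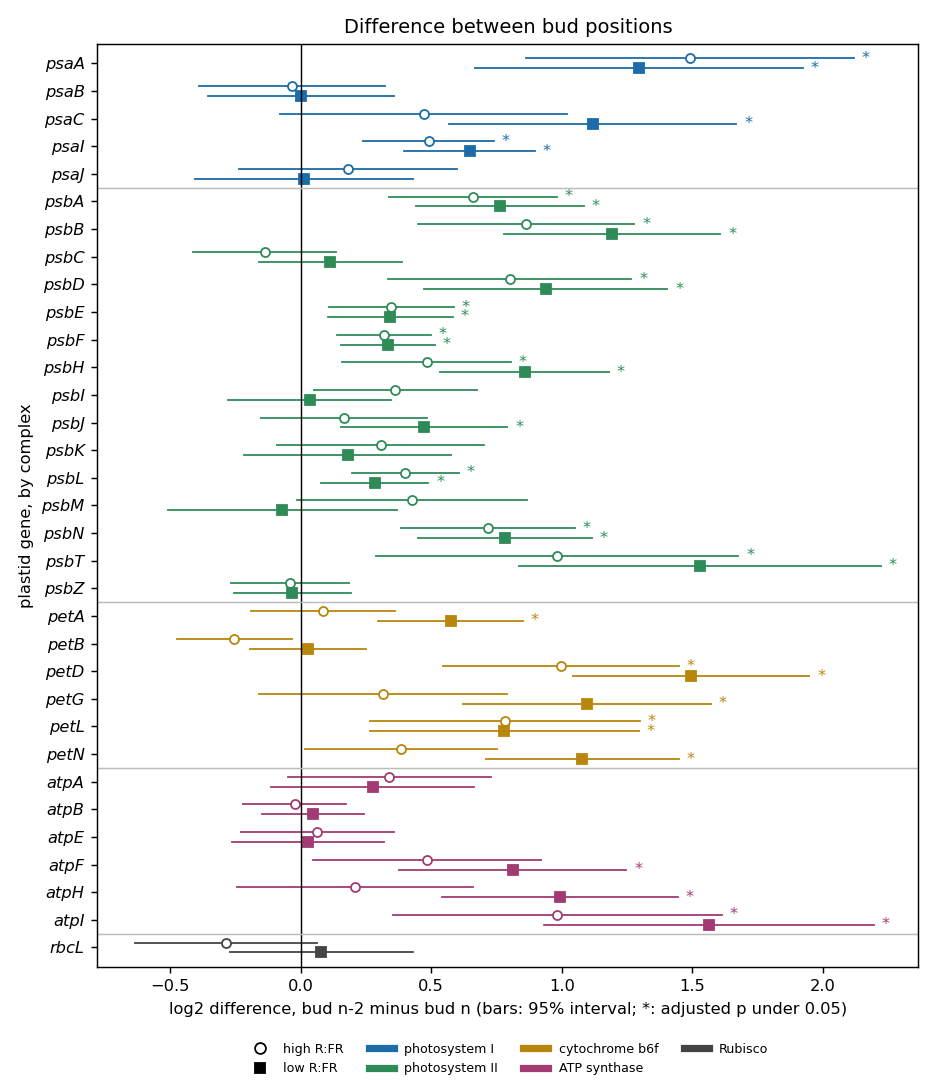
Log2 difference between bud n-2 and bud n for each of the 33 genes (horizontal axis) at high R:FR (open circles) and low R:FR (filled squares), with 95% intervals and a star where the adjusted p was under 0.05. All starred values lie to the right of 0, with psaA, psbT, petD and atpI farthest out, and psaB, psbZ, atpB and atpE lie near 0 in both lights.

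Low R:FR did not change the plastid genes detectably in the upper bud. In bud n 0 of the 33 genes were called (limma), where 0.07% of all tested probe sets rose and 0.014% fell (0.0839% in all), and the count was 0 under each of the 22 alternatives run. The median difference was 0.04 (-0.03 to 0.15 with single arrays left out), with 22 genes above 0. At an unadjusted p under 0.05, a looser threshold than that of the shares above, there was 1 gene (psbN). The psbN signal was 28.3, 30.2 and 31.9 at the high ratio and 49.3, 43.1 and 42.0 at the low ratio, without overlap (log2 0.57, adjusted p = 0.431). In all, the arrays of the lights did not overlap for 2 genes that were higher, psbL and psbN, and 1 that was lower, psbC (5.81% and 5.74% of all tested probe sets).

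In bud n-2, 4 of the 33 genes rose at the low ratio and 0 fell, where 4.34% of all tested probe sets rose and 5.49% fell (9.83% in all). They were psbN, petA, petN and atpH, of which psbN and petA are named because the count is small, after their values were seen. The median difference over the 33 genes was 0.25, beside 0.01 over all tested probe sets, and 26 were above 0. Leaving out the first high-ratio bud n-2 array moved that median to 0.39, and leaving out the second moved it to 0.12. Arrays did not overlap for 5 genes, these 4 and psbH, all higher (14.9% of all tested probe sets). The low-ratio bud n-2 arrays also enter the position comparison at the low ratio, so those results share samples. The 5S ribosomal RNA control was higher on these arrays too, without overlap, and its part in the rises was not tested. The petA signal went from 227, 163 and 156 at the high ratio to 308, 265 and 248 at the low ratio, a rise of 1.52-fold without overlap (log2 0.61 ± 0.13 SE, adjusted p = 0.00793). The psbN signal went from 53.3, 45.8 and 49.5 to 92.2, 84.5 and 58.4, a rise of 1.55-fold (log2 0.64 ± 0.16 SE, adjusted p = 0.0174). For petN and atpH, whose arrays are given above and did not overlap either, the rises were 1.64-fold (log2 0.71 ± 0.18 SE, adjusted p = 0.0171) and 1.75-fold (log2 0.81 ± 0.21 SE, adjusted p = 0.0242).

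Of these 4 calls only petA's held under every alternative run, 22 in all, with adjusted p up to 0.0461. The others depended on single arrays, and petN and atpH also on the model. The atpH call was lost without replicate 2 or 3 of bud n-2 at the high ratio and without any of the 3 bud n-2 arrays at the low ratio, with no trend in the prior variance and with the compared arrays alone, with adjusted p of 0.000838 to 0.101 over its alternatives. The petN call was lost without replicate 2 or 3 of the first group or replicate 1 or 3 of the second, and with no trend (0.000596 to 0.0695). The psbN call was lost without replicate 2 of the first or replicate 1 or 2 of the second (0.00429 to 0.0970). Counts ran from 1 without replicate 2 of bud n-2 at the high ratio, or without replicate 1 at the low ratio, to 7 without replicate 1 at the high ratio. Each of the other bud n-2 arrays left 2 calls when it was left out.

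By complex, the median response in bud n-2 was 0.14 for photosystem I, 0.08 for photosystem II, 0.57 for the cytochrome b6f complex and 0.26 for the ATP synthase. All 6 pet genes had a higher mean at the low ratio, from 0.19 (petB) to 0.71 (petN), and 2 passed. The photosystem I genes had 0 calls, with psaC at 0.66 (adjusted p = 0.119) and psaI at 0.29 (adjusted p = 0.132). Of photosystem II, psbB came closest without passing (log2 0.61, adjusted p = 0.0595). The rbcL difference was 0.36 (adjusted p = 0.195), and it was called without replicate 1 of bud n-2 at the high ratio (adjusted p = 0.00788; up to 0.699 over the alternatives).

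Testing whether the buds differed in their response to low R:FR called 0 of the 33 genes (limma; 0.343% of all tested probe sets higher in bud n-2, 0.686% lower, 1.03% in all). At an unadjusted p under 0.05 there were 4, petA, petG, petN and atpH, against 2127 of 14295 probe sets. Their differences of response were 0.49, 0.78, 0.69 and 0.78 (adjusted p = 0.213, 0.253, 0.182 and 0.224). Without replicate 1 of bud n-2 at the high ratio 2 were called, petN and atpH (adjusted p = 0.0309 and 0.0373; up to 0.329 and 0.397 over their alternatives). The position difference was larger at the low than at the high ratio for 23 of the 33 genes, which is the same contrast and was called for none.

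**Figure D3:**
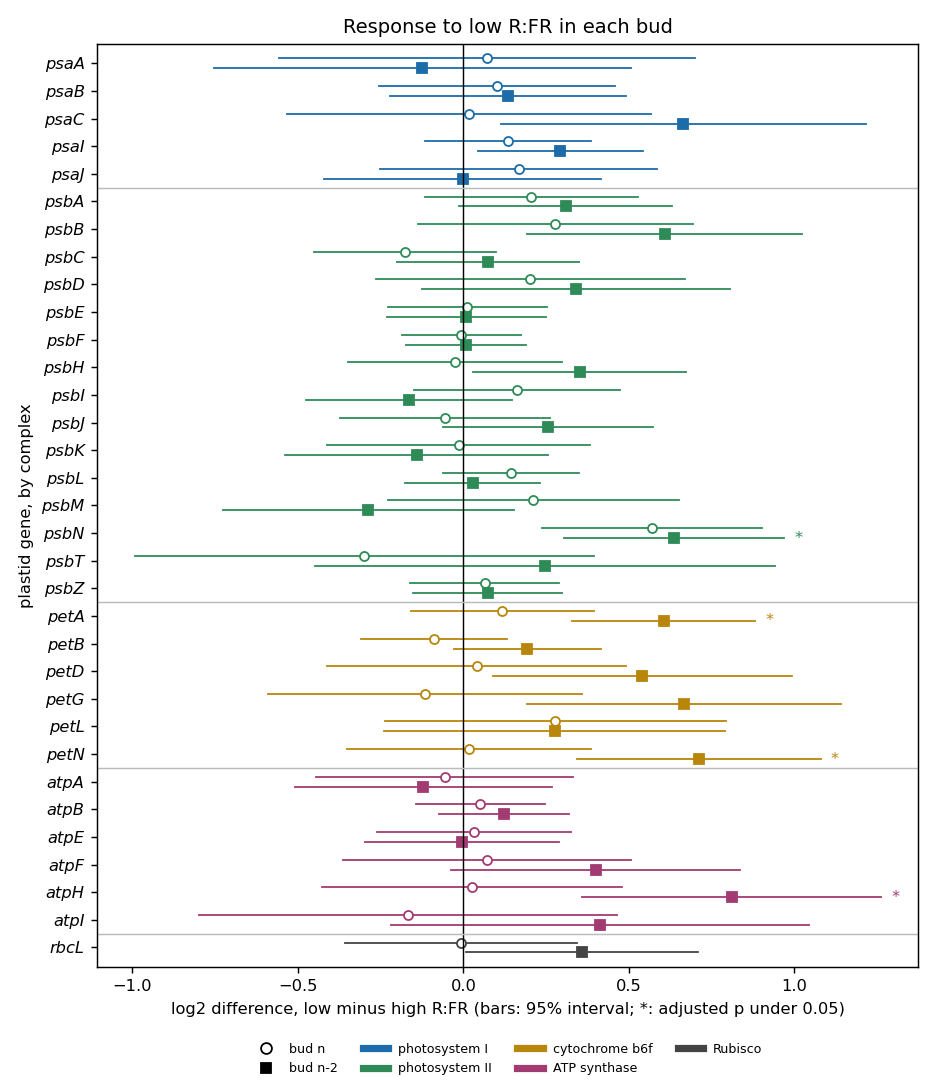
Log2 difference between low and high R:FR for each of the 33 genes (horizontal axis) in bud n (open circles) and bud n-2 (filled squares), with 95% intervals and a star where the adjusted p was under 0.05. Starred values are those of psbN, petA, petN and atpH in bud n-2, and the bud n values run from -0.30 (psbT) to 0.57 (psbN).

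Neighbouring genes that are known to share a transcript were set side by side. The 9 shared transcripts were written down from background knowledge after the values were seen, and nothing was tested on them. In the psaA unit, psaA and rps14 (a ribosomal protein gene) were 2.45-fold and 3.14-fold higher in bud n-2 at the low ratio, while psaB, which lies between them, was 1.00-fold. In the psbB unit, psbB, psbT, psbH and petD were 2.29-fold, 2.89-fold, 1.81-fold and 2.82-fold higher, and petB was 1.02-fold. As log2 differences, the values in the atpI unit were 1.56 for atpI, 0.99 for atpH, 0.81 for atpF and 0.28 for atpA. The psbD unit held psbD at 0.94 and psbC at 0.11.

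In the other units the genes were all called or all not called at the low ratio. At the high ratio 3 of these units were mixed, since psbJ, petA and petG were not called there. The psbE unit (psbE, psbF, psbL and psbJ) ranged from 0.28 to 0.47 at the low ratio with all 4 called, and the psbK unit (psbK and psbI) and the atpB unit (atpB and atpE) had 0 calls. In the psaI unit all 4 were called, at 0.65 for psaI, 1.97 for ycf4, 1.59 for cemA and 0.57 for petA. In the petL unit petL and petG were 1.72-fold and 2.14-fold higher. These make up 5 of the 9 units, and the psaI unit spanned a wider range than the atpI and psbD units. The ends of the transcripts were not checked, so this tally rests on where each unit was cut. For example, psaJ beside petG and psbZ beside psbC were called in neither light and were placed in no unit.

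**Figure D4:**
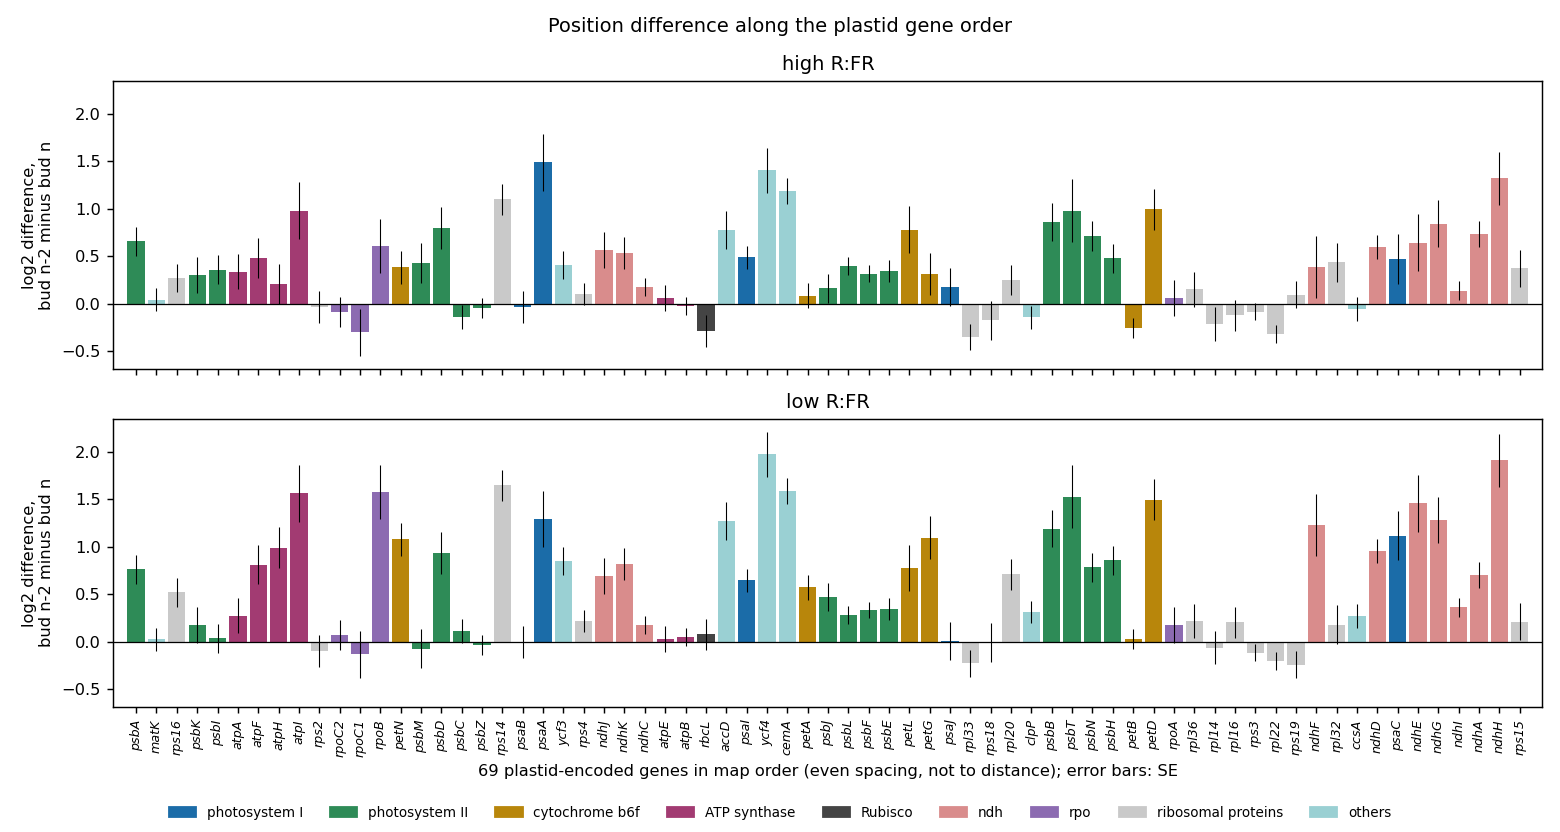
Log2 difference between bud n-2 and bud n (bars, with SE) for the 69 plastid genes with a single-gene probe set, in map order at even spacing, at high (top) and low (bottom) R:FR. Tall and flat bars stand next to each other, as psaB beside psaA and petB beside petD.

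The probe sets with a lower signal were those that differed most between positions, a split made after the values were seen. Among the 16 genes with the lower mean intensity (20.8 to 236), 9 were higher in bud n-2 at the high ratio and 14 at the low ratio, with median differences of 0.69 and 0.97. Among the 17 with the higher intensity (311 to 4204) the counts were 5 and 7 and the medians 0.32 and 0.18. Other probe sets within those intensity ranges were called higher in 2224 and 3201 of 10660 cases in the lower range and in 295 and 363 of 2075 in the higher range. They were called lower in 1173 and 2012 cases in the lower range and in 632 and 966 in the higher range, where their medians were -0.12 and -0.21. Spearman's rho between mean signal and position difference across the 33 genes was -0.69 at the high and -0.80 at the low ratio, a description over genes that share the same 12 arrays. With coding length rho was -0.15 and -0.03. The split and these rho values include psaA, the dimmest gene at 20.8, which passed the filter through bud n-2 alone. Whether the signal level of a probe set limits the difference it can show was not tested.

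**Figure D5:**
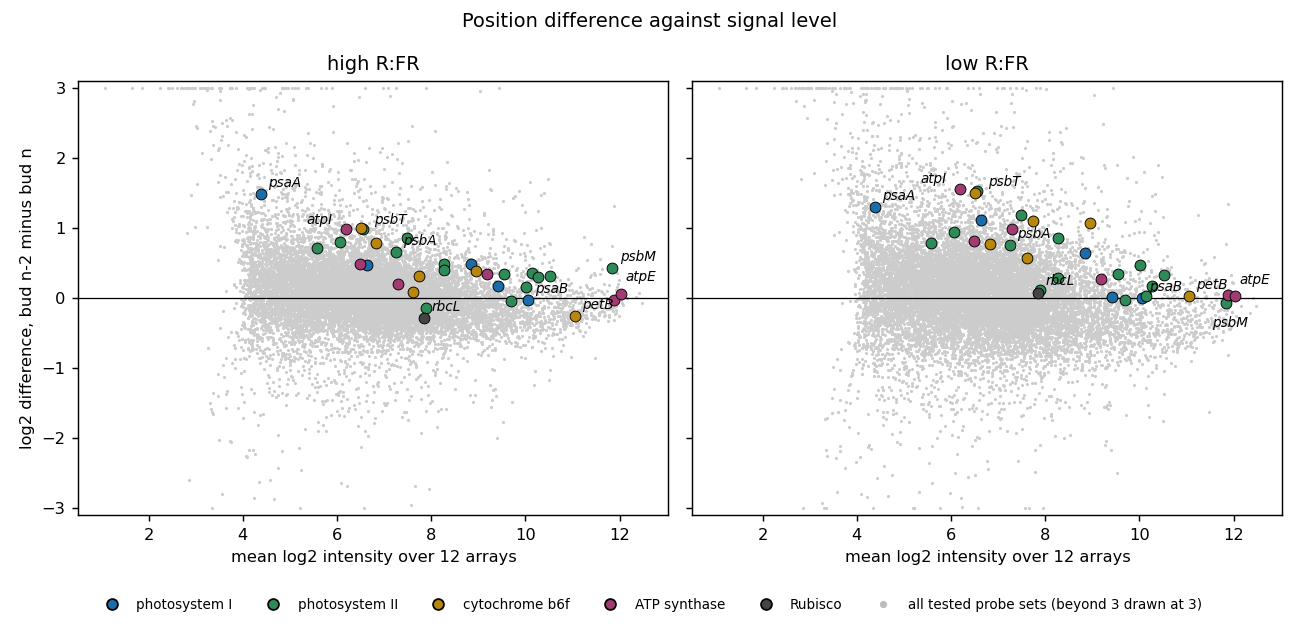
Log2 difference between bud n-2 and bud n (vertical axis) against the mean log2 intensity over the 12 arrays (horizontal axis) for all tested probe sets (grey) and the 33 genes (coloured by complex), at high (left) and low (right) R:FR. The coloured points slope down from psaA, atpI and psbT on the left to petB and atpE near 0 on the right. Differences beyond 3 are drawn at 3.

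The plastid genes shifted together between replicate arrays. In bud n-2 at the high ratio 28 of the 33 genes were above their group mean on replicate 1 (median deviation 0.20) and 6 on replicate 2 (-0.16). The ndh genes, left out of the 33, had median deviations of 0.36 and -0.12 on those arrays. Replicate 1 of bud n-2 at the low ratio had 26 of the 33 above (0.20). Replicate 1 of bud n at the high ratio had 6 (-0.15) and replicate 2 of bud n at the low ratio had 6 (-0.14). Whether all probe sets shifted with them was not tested. The median SD of the 33 genes was 0.17 and 0.16 on the log2 scale in bud n at the high and low ratio and 0.30 and 0.19 in bud n-2, where all tested probe sets had 0.13, 0.12, 0.15 and 0.12. Photosystem II genes had the smallest median SD of the 4 complexes in both bud n groups and in bud n-2 at the high ratio (0.13, 0.12 and 0.23). Among single genes the spread ran from 0.03 (psbL, bud n at the high ratio) to 0.80 (atpI, bud n at the low ratio).

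The other plastid genes differed by group. Of the 36 with a single-gene probe set, 11 were higher in bud n-2 and 1 was lower (rpl22, a ribosomal protein gene, -0.32) at the high ratio, and 18 were higher and 0 lower at the low ratio, beside the 20.2% and 28.4% of all tested probe sets that were higher. The ndh genes, of the NADH dehydrogenase-like complex that recycles electrons around photosystem I, gave 6 and 9 of 10. The rpo genes of the plastid polymerase gave 0 and 1 of 4, that 1 being rpoB (log2 1.58, adjusted p = 0.000192). Ribosomal protein genes gave 1 and 3 of 15, so that, like the rpo genes, they did not exceed the share over all probe sets, and the remaining genes 4 and 5 of 7, among them the assembly gene ycf4 (log2 1.97, adjusted p = 2.86e-06) and the envelope protein gene cemA (log2 1.59, adjusted p = 8.89e-08), both named for their place between psaI and petA. In response to low R:FR 0 of the 36 were called in either bud, beside 0.0839% (bud n) and 9.83% (bud n-2) of all tested probe sets. At an unadjusted p under 0.05 there were 0 and 7. That threshold is looser than the one behind these shares, so the counts cannot be set against them.

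The nuclear partners of these complexes could be followed only in part, because 11 of 61 listed loci had a named probe set. All 11 were tested. LHCB4.2, an antenna protein gene of photosystem II, was higher in bud n-2 in both lights (log2 0.30 and 0.34, adjusted p = 0.0154 and 0.00493), and the other 10 were not called between positions. LHCB4.2 was thus the only call among the 11, where 34.5% and 51.7% of all tested probe sets were called. The median difference over the 11 was 0.02 in both lights. Low R:FR changed 0 of them in either bud, where 0.0839% (bud n) and 9.83% (bud n-2) of all tested probe sets were called. At an unadjusted p under 0.05, a looser threshold than that of these shares, there were 0 in bud n and 2 in bud n-2. RCA differed between positions by 0.10 and 0.06. Single tested genes stood for plastid transcription (RPOTMP), plastid RNA processing (CRP1) and chlorophyll synthesis (PORB), and none was called between positions, at 0.42, 0.17 and 0.15 at the low ratio (adjusted p = 0.0714, 0.350 and 0.250). Of the markers of other tissues, FAMA of guard cells was not called (log2 0.51, adjusted p = 0.117 at the low ratio), and no vascular marker had a named probe set. FAMA was the only 1 of 3 listed guard cell and trichome markers with a named probe set, and AMS the only 1 of 7 for flowers. AMS was higher in bud n-2 at the low ratio (log2 1.14, adjusted p = 7.28e-05) and not at the high ratio (log2 -0.03, adjusted p = 0.929). The buds differed in the light response of AMS (log2 1.17, adjusted p = 0.0426). Its part in the plastid results was not tested.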

How the data were processed

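Axillary bud RNA was hybridised to 12 one-colour ATH1 arrays. The deposited intensity values are linear, and the submitters' processing notes name MAS5 and GCOS, without versions. The MAS5 method scales an array by a single factor, and the mean intensity without the 2% at each end was 100 on every array. The labels' protocols name the 3-prime IVT Express kit for labelling.

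Intensities were log2-transformed with no offset. Of 22810 probe sets (64 controls left out), 14295 were tested: each had to exceed the 40th percentile of an array on 3 or more of the 12. The 4 group means were fitted in R 4.3.3 with lmFit of limma 3.58.1 and moderated with eBayes, trend included. Benjamini-Hochberg adjustment, with a threshold of 0.05, ran within each of 4 two-group comparisons and the difference of responses. A gene dim on every array of a group is given as a bound, setting dim values to that percentile. The code was tested on simulated data.

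Names came from GEO's platform annotation, updated with RefSeq gene IDs. Of all probe sets, 8794 are unlisted and unnamed here. The members and lists were chosen with earlier results of these data known. Values on every array are given for rbcL and, per complex, for the brightest gene and up to 4 called genes with the largest difference. Where a listed gene had several probe sets, the brightest was used.

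Other settings tried were arrays centred on their median or quantile-normalized, an offset of 32 ahead of the log2 step, the percentile filter dropped or set to 60, and dim values raised to the percentile. In the model, the trend was dropped, arrays were weighted, the replicate number was a block, or the fit held the compared arrays only. Each array was also left out in turn.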

Additional observations from a re-analysis of the deposited data

How the results depend on the processing

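The count of genes that rose at the low ratio in bud n-2 was 4, and it was 2 with no trend in the prior variance (psbN and petA) and 7 with replicate number as a block (psbB, psbN, petA, petD, petG, petN and atpH). With single arrays left out it ran from 1 to 7. The count for the difference of responses was 0 and ran from 0 to 2. Counts with single arrays left out ran from 10 to 16 between positions at the high ratio and from 17 to 24 at the low ratio, and were 0 for bud n. The block changed no other count. The labels do not say whether replicate numbers pair the arrays. Over 18 pairs of same-numbered arrays, deviations from group means correlated at -0.14 to 0.08, with 0 above 0.1. This covers all tested probe sets together, so it cannot exclude a pairing that moves only some genes, such as these 33. Of the calls between positions other than psaA, 5 of 13 held under every alternative for the high ratio (psaI, psbA, psbB, psbN and petD) and 15 of 20 for the low ratio. The filter at the 60th percentile left psaA and psbN untested. Over single genes and comparisons, 55 alternative values lost a call, 28 gained one and 3504 kept their side of the threshold, and 0 reversed; the causes were not tested. With 3 arrays a group, a small difference could go uncalled where a probe set was dim, such as psaA, or its replicates spread widely. Some small differences were called, such as psbL between positions at the low ratio (log2 0.28).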

Other observations

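Genes of the mitochondrial genome, matched by symbol, had 18 named probe sets, of which 7 passed the filter, and several of these belong to the same gene (nad1). Between positions 2 of the 7 were higher in bud n-2 at the high ratio and 5 at the low ratio, and 0 were lower. Of all tested probe sets 20.2% and 28.4% were higher. The medians of the 7 were 0.29 and 0.55 on the log2 scale. Both counts include a nad1 probe set that was dim on every bud n array. It passed the filter through bud n-2 alone, so its calls are partly set by the filter. As bounds, its means were at least 1.71-fold and 2.01-fold higher in bud n-2. Without it the only call at the high ratio is another nad1 probe set (log2 0.48, adjusted p = 0.0224). The cox2 probe set was dim on every bud n-2 array and was not called. Low R:FR changed 0 of the 7 in either bud (limma), beside 0.0839% (bud n) and 9.83% (bud n-2) of all tested probe sets. At an unadjusted p under 0.05, a looser threshold than that of these shares, there were 1 in bud n and 3 in bud n-2. The 1 in bud n was the nad1 probe set that was dim on every array there.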
